A study of Drosophila melanogaster with 3 samples.

Results

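The Sox family of Drosophila melanogaster was followed through genome-wide maps of the chromatin protein Chrac-16 in whole embryos. The family has 8 genes (Sox14, SoxN, D, Sox15, Sox21a, Sox21b, Sox100B and Sox102F) of 13945 protein-coding genes in the annotation. It was chosen with its peaks known: Sox14 was selected on the signal of its promoter peak, one of the strongest in the series, and the other members came in as the rest of the family. Peak strength is therefore given as a description and was not tested. Every peak whose summit lay in the gene body or within 5 kb of either end was counted to a gene.

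Chromatin immunoprecipitation followed by sequencing was done on 3 biological replicates of one kind of sample, with no second condition. The embryos were of both sexes, 0 to 24 h old, and came from a transgenic line in which Chrac-16 is made as a stable fusion with GFP on its C-terminal end, which was pulled down with an antibody against GFP per the description in the labels, while the antibody field names Chrac-16. Pooling a whole day of embryonic stages and all cell types means that a peak cannot be assigned to the cells in which a given Sox gene is used. The authors deposited peaks on the dm6 build as 1 list for each replicate (30000, 24619 and 29140 peaks in replicates 1, 2 and 3), 1 pooled list called on the replicates together (24641 peaks), and 1 optimal list (4941 peaks). The optimal list consisted of the strongest peaks of the pooled list, down to a signal of 99.6. The signal is the authors' own value for each peak, and its scale differs between lists. Read depth is unknown, because peak lists hold no counts.

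Chrac-16 is a small histone-fold protein that pairs with Chrac-14 in CHRAC, a remodelling complex in which the ATPase Iswi, with Acf, slides nucleosomes along DNA. Sox proteins bind DNA through an HMG box, which fits into the minor groove and bends the helix, and they are used throughout animals to set and hold cell identities. In flies, SoxN and D (Dichaete) are the group B proteins of the early nervous system, and D also acts in segmentation. Sox21a, another group B gene, is known from progenitor cells of the adult gut. Sox14 is the group C gene, induced by the steroid ecdysone and needed when neurons prune their dendrites. Sox102F belongs to group D, Sox100B is the group E gene and acts in the male gonad, and Sox15 is the group F gene, with roles in the wing hinge and in the socket cells of bristles.

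In the optimal list, Chrac-16 had a peak at the promoter of 3 of the 8 Sox genes (Sox14, Sox102F and Sox100B, 37.5%), where a promoter peak is one with its summit within 500 bp of an annotated transcript start. Among all protein-coding genes the share was 22.5%. The wider window held an optimal summit at 6 of 8 Sox genes, all but SoxN and D, against 51.8% of all protein-coding genes and 61.6% of the genes whose windows are as long as those of the Sox genes (13011 to 43958 bp). In the pooled list, which reaches much weaker peaks, 7 of 8 Sox genes had a promoter peak, against 49.7% of all genes, and every Sox window held a summit, against 87.4%. Because the family was picked with these peaks known, nothing about it is read from those shares.

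The 8 windows held 8 distinct optimal summits with signals of 103.1 to 1438. Sox100B had 3 of them, Sox15 had 2, Sox14 and Sox102F had 1 each, and the last lay between Sox21a and Sox21b in the windows of both. All 8 overlapped a peak in every replicate, as did 99.7% of all optimal peaks, and 7 of 8 were among the 4941 strongest peaks of each replicate. Of the 8, 4 lay nearer to the start of a Sox gene than to the start of another gene. For this count and for the 7 of 8, no share over all optimal peaks was worked out, so both are descriptions only. The call of a promoter peak depended on the distance allowed, since the promoter summits of Sox14, Sox102F and Sox100B lay 258, 287 and 462 bp from a start and none of the 3 would count within 250 bp.

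**Figure D1:**
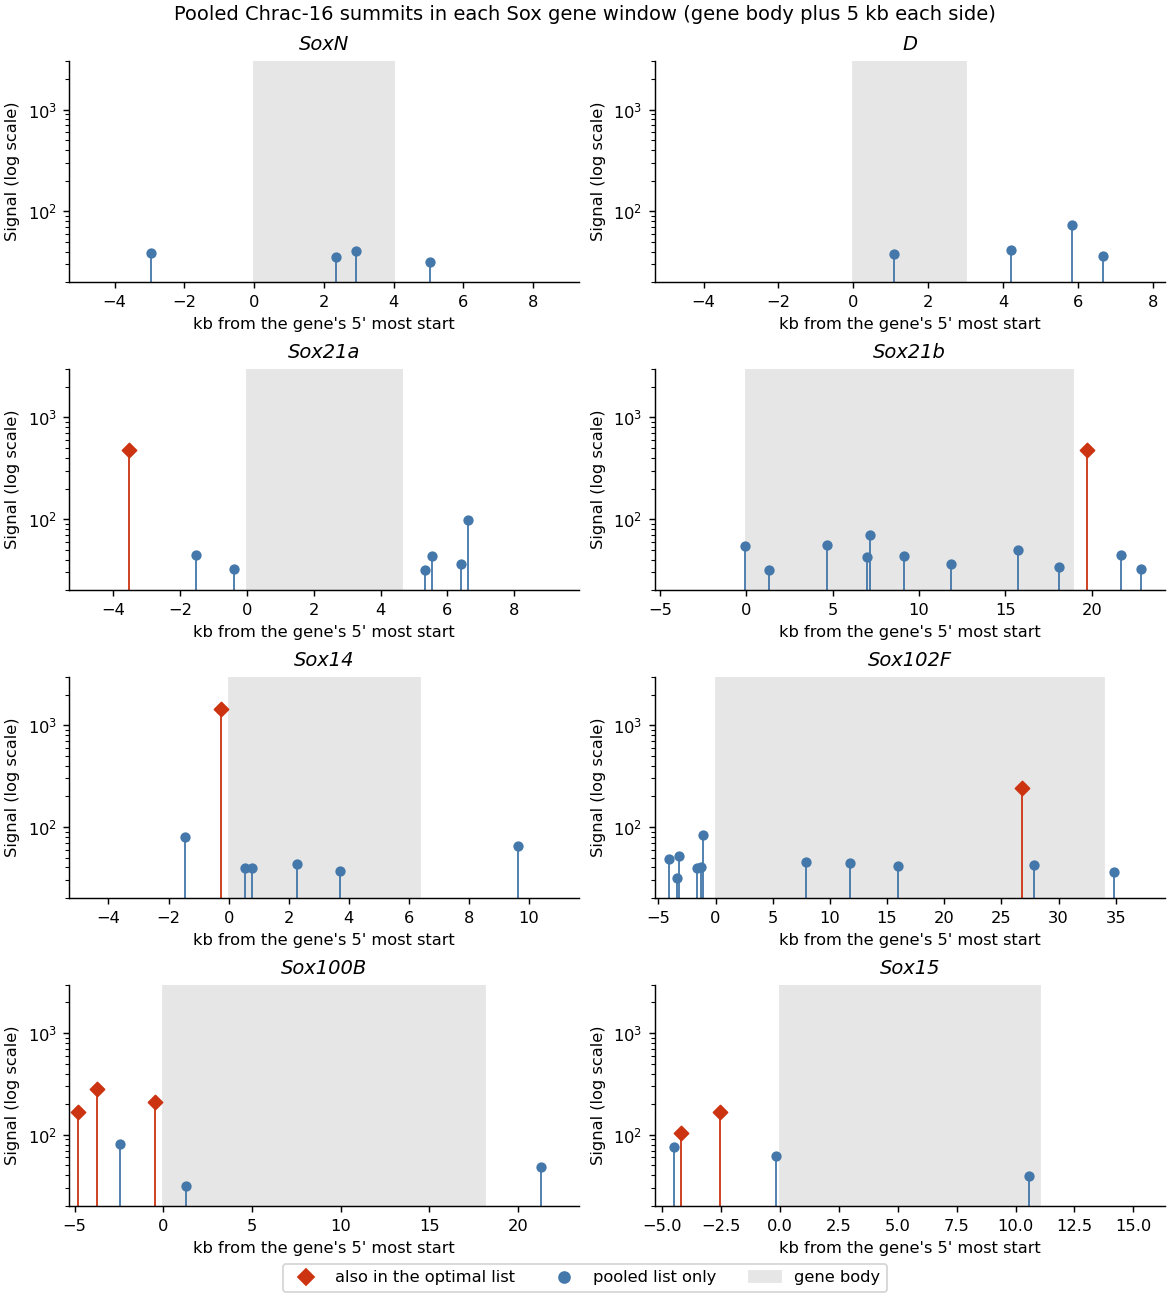
Pooled summits in the 8 Sox windows, 1 panel per gene, each drawn at its distance in kb from the 5'-most start of the gene (x) and at its deposited signal (y, log scale), with red diamonds for peaks also in the optimal list, blue points for the rest and the gene body in grey. The Sox14 panel has the highest diamond, at 1438, and the SoxN and D panels hold blue points only.

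Sox14 carried the strongest peak of the family. It lay on 2R from 23978374 to 23978732 (dm6), with its summit in intergenic sequence 258 bp upstream of the first of the 3 annotated starts of Sox14 (FBgn0005612, 2R, 23978801 to 23985177, forward strand). Its signal of 1438 ranked 28 among 4941 optimal peaks and 20 among 2549 promoter peaks, at 7.72 times the median promoter peak (186.4). The replicate signals were 460.2, 470.2 and 500.7 in replicates 1, 2 and 3, with ranks of 33, 31 and 23 in lists of 30000, 24619 and 29140 peaks. Its signal was 28.9 ± 2.83 times the median of its list (SD, n = 3). The replicate summits lay within 23 bp of each other. The promoter peaks next above it belonged to GstE13 (signal 1456), gish (1471) and CG9147 (1507), and those next below to Tina-1 (1404), CG18549 (1383) and Fkbp14 (1371), so Sox14 sat in a nearly continuous series and not apart from it.

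The rest of the Sox14 gene was far weaker. The pooled list had 2 more summits near its other starts, 299 bp upstream of one (signal 39.8) and 249 bp downstream of another (39.6), both in the 5' UTR, and 2 in introns (43.1 and 36.8). Elsewhere in the window lay the promoter peaks of PPP1R15 (79.8), 1457 bp upstream of Sox14, and of Phm (65.2), which encodes an enzyme of peptide amidation. None of these reached the optimal list.

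**Figure D2:**
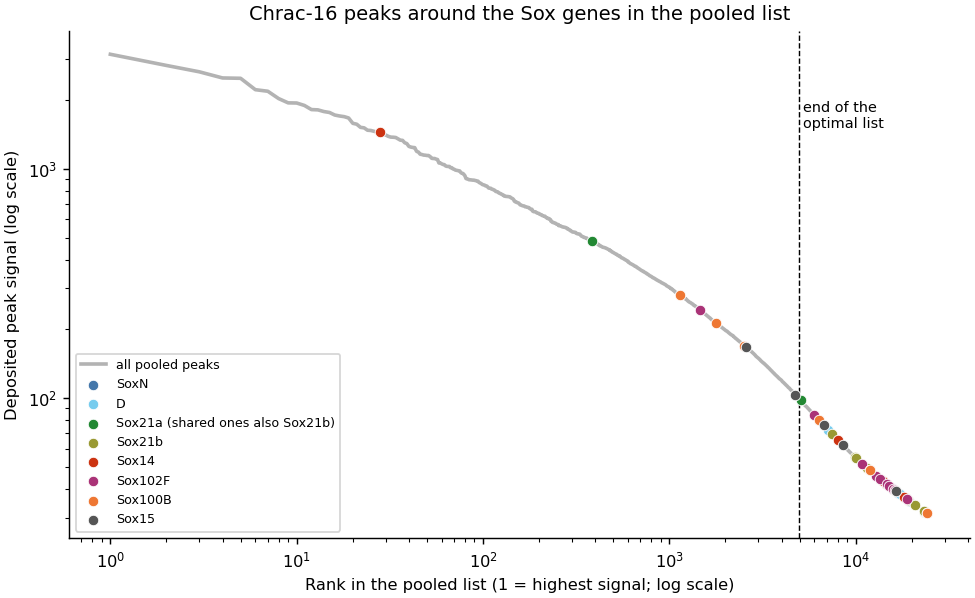
Deposited signal (y, log scale) against rank (x, log scale) for all 24641 pooled peaks as a grey line, with the 54 summits of the Sox windows as points coloured by gene and the end of the optimal list dashed. To the left of the dashed line 8 points run from Sox14 at rank 28 to the RpS23 peak of the Sox15 window at rank 4747, and the other 46 lie to its right.

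SoxN and D, the neural group B genes, had no optimal peak in their windows. SoxN (FBgn0029123, 2L, 8825645 to 8829670) had 4 pooled summits of signal 31.8 to 40.4, with none within 500 bp of its start. The nearest was 2347 bp into the gene, in coding sequence. Replicate 2 alone listed a peak 62 bp downstream of the SoxN start, at signal 13.3 and rank 22758 of 24619, close to the bottom of its list. D (FBgn0000411, 3L, 14175610 to 14178620) also had 4 pooled summits. One lay in its 5' UTR, 12 bp downstream of a start, with signal 38.0, and matched peaks of signal 14.4 in replicate 2 and 22.2 in replicate 3 but none in replicate 1. The strongest, at 72.6, lay 4768 bp downstream of that start and was found in replicates 1 and 3 (28.3 and 37.9) but not in replicate 2. The nearest optimal summits lay outside the windows. That of SoxN was 9330 bp downstream of its start and 5305 bp from the gene body (126.1, rank 3705), and that of D was 11033 bp downstream of a start and 9106 bp from the gene body (148.8, rank 3008).

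The strongest Sox peak away from any promoter lay between Sox21a and Sox21b, in the 4286 bp that separate these neighbouring group B genes. It spanned 3L from 14111477 to 14111748 with signal 483.0 (rank 386 of 4941), and its summit was 3505 bp upstream of the Sox21a start (FBgn0036411, 3L, 14103481 to 14108118, reverse strand) and beyond the 3' end of Sox21b (FBgn0042630, 3L, 14112405 to 14131324, reverse strand). Signals were 109.0, 203.0 and 169.3 in replicates 1, 2 and 3, with ranks of 847, 236 and 360. It had the highest signal in both windows in every replicate, though replicate 1 placed it lower than the others did. Relative to the list medians it stood at 9.58 ± 2.27 (SD, n = 3). The replicate summits spanned 20 bp. The 201 bases around this summit are shown because the peak is narrow (272 bp) and lies in no gene. They are from the forward strand of chr3L:14111523-14111723 in the RefSeq release 6 sequence of the same build. Capitals mark AAATTT and 2 matches to an 8-letter core, GNTGGCGC on either strand, described with the motifs.
Sox21a/Sox21b: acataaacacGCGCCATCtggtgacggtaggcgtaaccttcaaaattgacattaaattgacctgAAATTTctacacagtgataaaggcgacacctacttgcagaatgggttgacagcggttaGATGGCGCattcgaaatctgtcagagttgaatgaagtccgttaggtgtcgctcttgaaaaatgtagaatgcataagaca

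The promoters of the Sox21 pair were weak by comparison. Sox21a had a pooled peak 367 bp upstream of its start at signal 32.0 that matched no peak in any replicate list. Sox21b had one 93 bp upstream at signal 54.4, with 22.8, 14.6 and 13.1 in replicates 1, 2 and 3. Just under the edge of the optimal list, a pooled peak at the Fbp1 side of the Sox21a window had signal 97.7 (rank 5059). It overlapped a peak in all replicates, at 31.9, 38.5 and 31.2. The replicate 3 summit lay 176 bp away, nearer to that of a separate pooled peak (signal 36.4). Just inside the edge of the optimal list stood the RpS23 peak of the Sox15 window, at 103.1 and rank 4747.

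Sox21a, Sox21b and D follow each other on one chromosome arm, and the stretch from the Sox21a window to the D window covers 85140 bp. It held 2 optimal and 32 pooled summits, and 29, 27 and 31 summits in replicates 1, 2 and 3. The 44285 bp between Sox21b and D contain no protein-coding gene and 1 annotated RNA gene, lncRNA:CR45887, and 16 of the pooled summits lay there, with 15, 16 and 14 in the replicates. The 1 optimal peak among them was the one 11033 bp downstream of a D start (3L, 14166296 to 14166711), with replicate signals of 50.7, 44.6 and 52.0. Chrac-16 peaks were thus listed across the interval, all of them at signals far under that of the Sox21a peak.

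**Figure D3:**
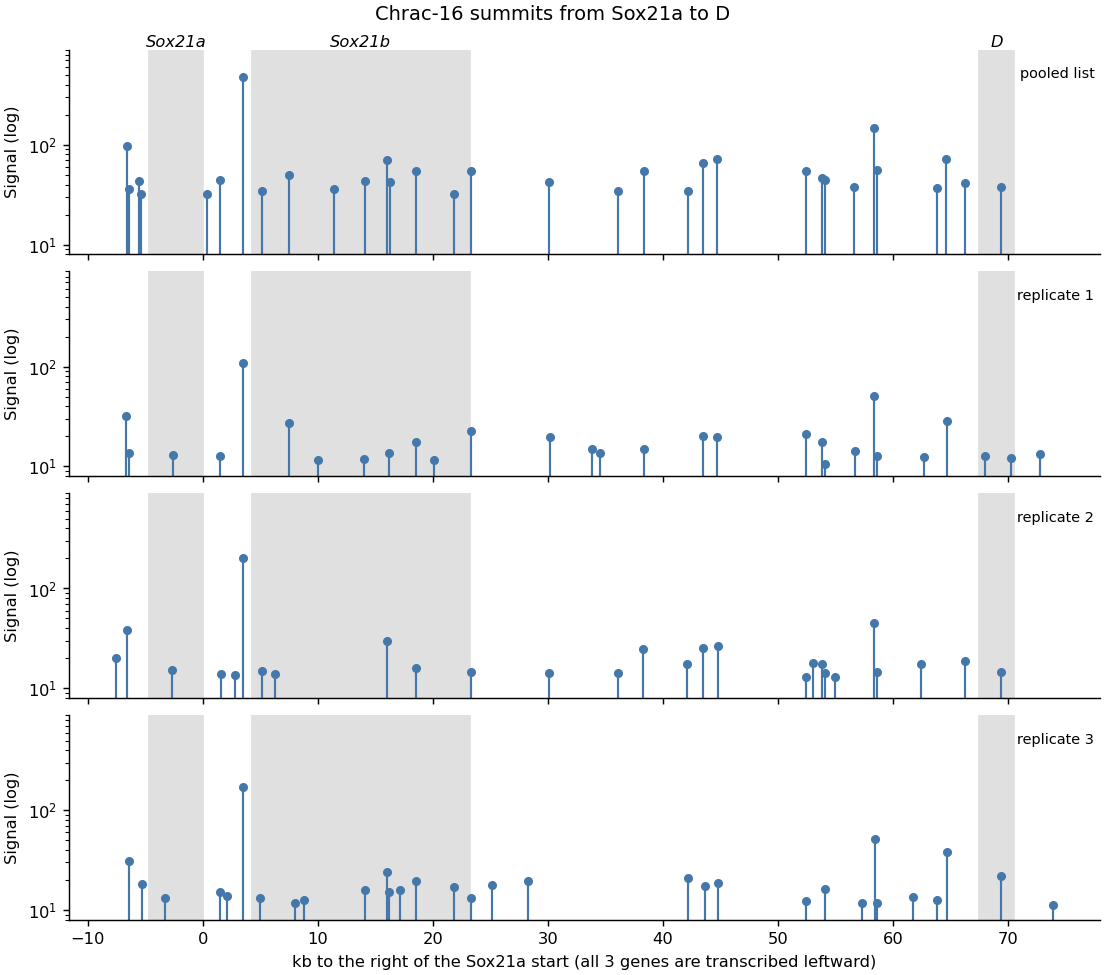
Summits from Sox21a to D in the pooled list and in replicates 1, 2 and 3 (panels from top to bottom), at their distance in kb to the right of the Sox21a start (x) and their deposited signal (y, log scale), with the 3 genes shaded. In each panel the highest line is the peak between Sox21a and Sox21b, at 483.0 in the pooled list, and the next highest stands between Sox21b and D, at 148.8 in the pooled list.

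Sox102F, the longest of the family (FBgn0039938, chromosome 4, 800436 to 834393, reverse strand), had its optimal peak at an internal promoter. The peak spanned chromosome 4 from 807426 to 807841 with signal 242.2 (rank 1455). Its summit lay in an intron, 287 bp upstream of an internal start and 26759 bp downstream of the 5'-most start. Among promoter peaks it ranked 867 of 2549, at 1.30 times the median, so 66.0% of promoter peaks were weaker. Replicate signals were 73.2, 114.6 and 59.0, with ranks of 1704, 844 and 2421. Replicate 2 was the highest, and the summits spanned 118 bp, the widest spread of the promoter peaks of Sox14, Sox102F and Sox100B. At the 5'-most start the pooled list had no summit within 500 bp, although each replicate listed a weak one there, 376 bp downstream in replicate 1 (rank 20865 of 30000), 372 bp upstream in replicate 2 (rank 20510 of 24619) and 196 bp downstream in replicate 3 (rank 23194 of 29140). The nearest pooled summit was 1064 bp upstream at signal 84.3, found in all replicates. The sequence around this optimal summit is shown because only 1 of the 3 Sox102F starts had an optimal summit within 500 bp. The printed bases lie upstream of that start and do not include it. They are chr4:807534-807734, RefSeq release 6, with AAATTT and TATAAA in capitals. They are read on the forward strand, whereas Sox102F is on the reverse strand.
Sox102F: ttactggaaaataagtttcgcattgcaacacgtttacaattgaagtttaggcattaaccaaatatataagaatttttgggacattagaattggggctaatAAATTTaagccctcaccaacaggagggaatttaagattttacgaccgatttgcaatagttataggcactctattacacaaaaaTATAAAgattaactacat

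Sox100B (FBgn0024288, 3R, 31065253 to 31083407, forward strand) had 3 optimal peaks, all upstream of the gene. The one at its own promoter (3R, 31064583 to 31064998) had its summit 462 bp upstream of the start and signal 212.2, rank 1771, which is 1.14 times the median promoter peak. Replicate signals were 55.2, 80.7 and 78.6, lowest in replicate 1. The other two sat at dco, which encodes the casein kinase Doubletime and reads away from Sox100B. The stronger (3R, 31061431 to 31061630) had signal 279.9 and rank 1139, and lay 325 bp upstream of a dco start and 3718 bp upstream of Sox100B. Its replicate signals were 63.5, 113.5 and 101.0, and its summits spanned 4 bp, the tightest of the 8. The weaker lay in the dco 5' UTR, 362 bp downstream of another of its starts, with signal 168.5 and replicate signals of 68.3, 55.6 and 52.0. In the same window the promoter peak of the neighbour was therefore above that of Sox100B itself in the optimal list and in each replicate. Another peak in the interval, 2434 bp upstream of Sox100B, had signal 80.4 in the pooled list and 32.7, 17.7 and 17.7 in replicates 1, 2 and 3, but was not in the optimal list. Just outside the window, 6022 bp upstream of Sox100B, lay another optimal peak, 1542 bp downstream of a dco start (239.5, rank 1473).

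The sequence under the stronger dco-side summit is shown because its replicate summits were the tightest of the 8 (chr3R:31061435-31061635, forward strand, RefSeq release 6). Capitals mark 3 matches to GNTGGCGC or its reverse complement GCGCCANC.
dco/Sox100B: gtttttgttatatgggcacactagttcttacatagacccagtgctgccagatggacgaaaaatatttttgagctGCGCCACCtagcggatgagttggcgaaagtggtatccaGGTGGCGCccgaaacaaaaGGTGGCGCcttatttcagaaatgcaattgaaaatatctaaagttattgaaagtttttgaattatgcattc

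**Figure D4:**
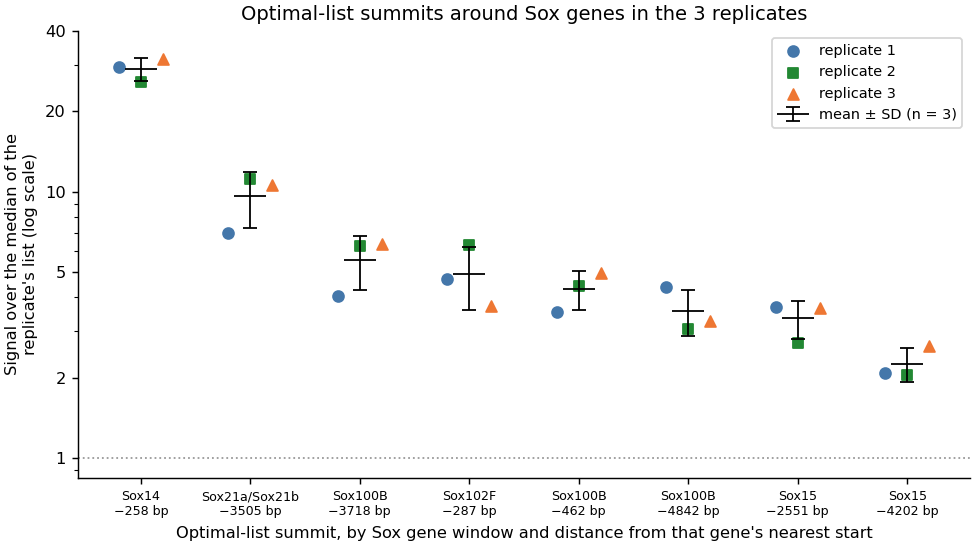
Signal of the 8 optimal Sox summits in replicates 1, 2 and 3, each divided by the median signal of its replicate list (y, log scale), with the mean and SD in black, in order of pooled signal (x). Sox14 lies between 25.8 and 31.4 and the Sox21a/Sox21b peak between 6.97 and 11.1.

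Sox15 (FBgn0005613, 2R, 14201390 to 14212413, reverse strand) had 2 optimal peaks in its window, both upstream of it and neither at its own promoter. One was the narrowest of the 8 at 113 bp (2R, 14214917 to 14215029), in intergenic sequence 2551 bp upstream of Sox15 and 900 bp downstream of the start of mir-308, a microRNA gene. Its signal was 166.6 (rank 2574), and the replicates gave 57.4, 49.1 and 58.1. The other (2R, 14216407 to 14216822, signal 103.1) lay 12 bp downstream of the start of RpS23, a ribosomal protein gene, and 4202 bp upstream of Sox15. Its replicate signals of 32.7, 37.2 and 42.0 were the lowest of the 8, it fell outside the 4941 strongest peaks of replicate 1 (rank 5190), and the summits spread over 285 bp. In replicate 2 the overlapping peak had its summit 275 bp upstream of RpS23, at the summit of a separate pooled peak (signal 76.0), so that replicate listed no summit of its own at this RpS23 peak. At the Sox15 promoter the pooled list had a peak 161 bp upstream of the start with signal 61.9, found in all replicates at 11.3, 25.1 and 18.5. The replicate 1 peak was weak, at rank 26136 of 30000, with 12.9% of its list lower.

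Peaks outside the optimal list made up most of what was listed at the Sox genes, as they did of the whole pooled list (19700 of 24641 peaks). Of 54 distinct pooled summits in the 8 windows, 46 were not in the optimal list, with signals of 31.3 to 97.7 and a median of 41.9, against 41.8 for all 19700 such peaks of the genome. A peak in every replicate matched 15 of the 46 (32.6%), against 39.9% of all such peaks. For 17 a match was found in 2 replicates, for 11 in 1, and for 3 in none. By place, 26 of the 54 summits were intergenic, 15 were in introns, 7 in coding exons and 6 in 5' UTRs. Places were not counted over all pooled peaks, so these numbers are a description only. The median Sox window held 6.5 pooled summits, against 4 (quartiles 3 to 7) for windows of all genes in the same range of lengths. Per 10 kb of window the medians were closer, at 2.96 and 2.44. Summits between Sox21a and Sox21b were counted in both of their windows. The number of peaks per window also varied between replicates, from 3.67 ± 1.53 at D to 10.3 ± 3.21 at Sox21b (SD, n = 3). In the windows, 14 of 48, 15 of 46 and 19 of 62 peaks in replicates 1, 2 and 3 touched no pooled peak. The same share over the whole replicate lists was not counted.

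Short motifs were counted on both strands within 150 bp of each summit. The Sox-type motif ACAAAG was at 1 of the 8 optimal Sox summits, the one in the dco 5' UTR, against 19.7% of all optimal summits. It was at 17 of the 46 weaker Sox summits (37.0%), against 20.3% of all weaker ones. At other widths ACAAAG was at 5 of 46 within 50 bp (10.9%, against 6.95%) and at 19 over the whole peak (41.3%, against 27.0%). Some weaker Sox summits have overlapping windows, so 1 site can be counted at 2 summits, and the difference was not tested. ACAATG, the other Sox-type motif, was at 0 of 8, against 16.5% of all optimal summits, and at 6 of 46 weaker Sox summits (13.0%), against 17.2% of all weaker ones. GAGAG, the core of GAGA factor sites, was at 2 of 8 (32.3% of all optimal summits), and TATCGATA, a motif bound by Dref, at 0 of 8 (5.93%), while the shorter CGATA inside it was at 2 of 8 (39.5%). GGTCACACT, known as Motif 1 of fly core promoters, was at 1 of 8, the RpS23 start (2.95%). TATAAA was at 3 (47.0%), GCCAT, the core of Pho sites, at 3 (37.4%), AAATTT at 4 (37.5%), CAGGTA, part of the Zelda motif, at 1 (6.29%), and ATGCAAAT, the octamer of POU proteins (3.62%), and CAGCTG, an E-box (14.9%), at 0 of 8. GC content over the same 301 bp had a median of 37.4% (30.9% to 48.5%, highest at Sox14), against 36.2% (quartiles 32.9% to 39.9%) at all optimal summits.

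One more sequence was counted after the printed stretches had been read. The core GNTGGCGC, which resembles part of the recognition sequence of the insulator protein CTCF, was at 3 of the 8 optimal Sox summits, against 246 of 4941 (4.98%) overall. These were the peaks of highest signal in the family: Sox14 with 2 overlapping matches, Sox21a/Sox21b with 2, and the dco-side peak of Sox100B with 3. At the other 5 there was no match. Matches of 2 or more were at 0.769% of all optimal summits. Of the weaker Sox summits 2 of 46 had it, one in SoxN coding sequence and one 1523 bp upstream of Sox21a, against 3.76% of all weaker summits. Since the core was picked from these sequences, its count at them is a description only, and it overlaps GCCAT in the Sox21a/Sox21b peak. By width, 4 of the 8 (Sox14, Sox21a/Sox21b, dco at 200 bp and the mir-308 side at 113 bp) were narrower than the commonest width of 416 bp, as were 21.1% of all optimal peaks. The 3 promoter peaks ranked next above Sox14 and the 3 next below were also narrower than 416 bp.

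Genes that work with the Sox proteins, or carry the same kind of domain, were looked up in 8 lists. Of 78 genes, 18 had an optimal promoter peak (23.1%), against 22.5% of all protein-coding genes, so the lists together stood at the background. Ecdysone and pruning genes, the setting in which Sox14 is known, had 6 of 10. Eip75B, an ecdysone-induced nuclear receptor, had signal 453.8, and the receptor subunits usp and EcR had 206.7 and 110.4. Signals at Mical, Cul1 and ftz-f1 were 324.3, 101.8 and 101.3, each nearest to the start of another gene (CG3909, CG12159 and lncRNA:CR45939). At Cul1 the replicates gave 44.1, 14.2 and 41.7, with replicate 2 far below the others.

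Of the 15 neural partners and targets of SoxN and D, 1 had a peak, brat (187.0), and its summit was nearer to the start of Polr1D. None of 12 segmentation genes and none of 8 gut stem cell genes had one. Sense organ genes around Sox15 had 3 of 6, with numb at 582.6, neur at 222.8 and the receptor gene N at 143.9. Wnt pathway genes, the list around Sox102F and SoxN, had 3 of 8, with the kinase gene sgg at 629.2, nkd at 414.3 and Apc at 107.5, and gonad genes 2 of 6, with so (sine oculis) at 139.2 and dsx, the sex-determination gene, at 119.3. Of 13 other HMG-box genes 3 had a peak, bbx at 731.9, cic at 278.1 and Hmg-2 at 220.2, all under the signal of Sox14. The lists are small and were drawn up with earlier results of these data known, and no list was tested.

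**Figure D5:**
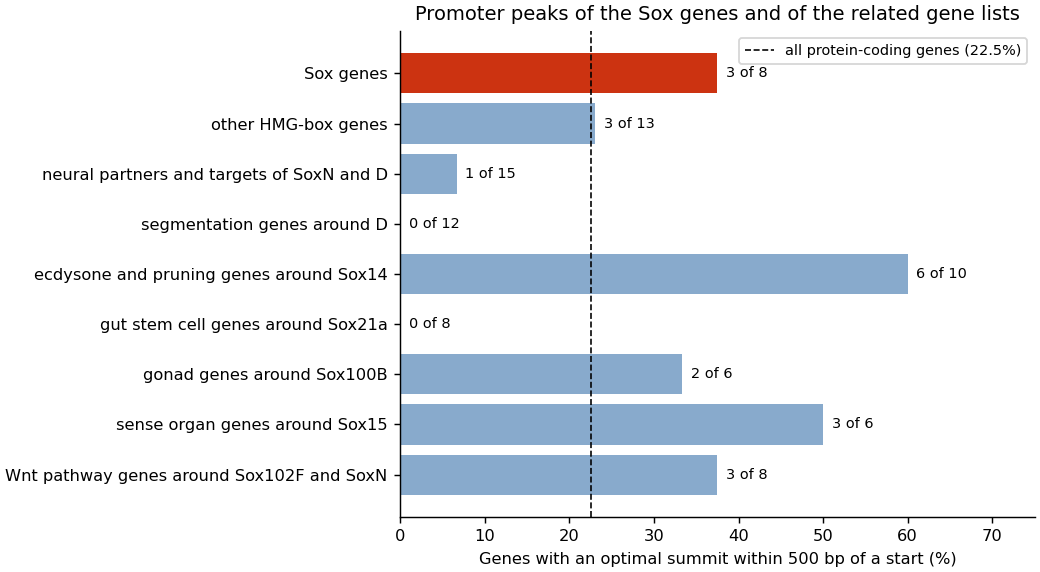
Share of genes in % with an optimal promoter peak (x) for the Sox genes, in red, and the 8 lists, in blue, with counts beside the bars and a dashed line at 22.5% for all protein-coding genes. The ecdysone and pruning list is longest at 6 of 10, and the segmentation and gut stem cell lists are at 0.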

How the data were processed

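The authors deposited narrowPeak lists of Chrac-16-GFP ChIP-seq in 3 replicates, with chromatin sheared by sonication to 200 to 800 bp per the labels. The signal of each peak (column 7) is the authors' own value, as deposited, on a scale that is not the same in every list. It served only to rank and describe peaks within a list, or after division by the list's median. Per the deposited listings, a control alignment entered the calling, and the optimal list came from an IDR threshold. The control is not analysed here. No source used here names the caller or the aligner. No column lacked a sample. Replicates are the biological replicates of the labels, and SDs are over these 3.

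Summits (start plus offset in column 10) were placed on Ensembl release 115 genes, and the release 6 sequence is from RefSeq. Replicate peaks were matched to pooled peaks in the Sox windows by an overlap of at least 1 bp, taking that with the nearest summit. A replicate peak can therefore match 2 neighbouring pooled peaks. Mature microRNA entries were left out of the starts. Members and lists were chosen with earlier results of these data known, and 2 list symbols were replaced by current ones (hry, Delta). Text names all Sox genes, the genes nearest to their peaks, 3 rank neighbours each side of Sox14, and up to 6 genes per list. Counts were run in Python 3.11.15 with pandas 2.3.3 and checked on planted summits. No test was run. Coordinates are on dm6, and the dm3 lists were not used here. The sequence at the Sox100B promoter summit is not reported here.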

Additional observations from a re-analysis of the deposited data

How the results depend on the processing

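Of 48 recomputed values, 36 stayed within 1.5 times the reported count or within 1 SD, and 12 moved. Some of the 36 could not have moved. The promoter peaks of Sox14, Sox102F and Sox100B were among the 4941 strongest of every replicate, so leaving a replicate out could not remove them. The tally is therefore not a measure of stability. Sox genes with a promoter peak, 3 as reported, were 0 within 250 bp and 7 in the pooled list, and 2 with the 5'-most start alone. The 78 list genes, 18 as reported, gave 11 with the optimal peaks above the list's median signal, 52 with the pooled list and 10 with the 5'-most start alone. The share of all protein-coding genes rose to 49.7% in the pooled list. At the other settings that share was not counted, so a change in the Sox or list genes cannot be told from a change in all genes. Optimal summits at the Sox genes, 8 as reported, were 1 in gene bodies alone, 4 within 2 kb and 5 above the median signal of the list. Pooled summits, 54 as reported, were 22 in gene bodies alone and 23 above the median signal of the pooled list. Sox14's share of weaker peaks, 99.9% over the replicates, was 99.4% in the shorter optimal list, and, near its ceiling for a peak chosen as strong, says nothing of agreement between replicates. Motifs present, 17 summed over the 8 summits, were 7 within 50 bp. When each replicate was left out in turn and the 4941 strongest peaks of the others were required, Sox promoter peaks were 3 each time, optimal summits 7 to 8, list genes 14 each time, and Sox14's share was 99.88% to 99.91%. The core counted after the sequences were read was at 3 of the 8 summits at every window width. At the Sox21a/Sox21b and dco-side peaks this was fixed beforehand, since the printed bases it was picked from hold matches within 50 bp of those summits. Unknown depth limits every peak called absent, which may lie under the calling threshold, and the summits nearest to other genes' starts cannot be assigned to the Sox genes by position.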
